A study of Mus musculus with 6 samples.

Results

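The genes described here encode the proteins of the small subunit of the cytosolic ribosome in mouse squamous cell carcinoma cells. They were chosen by name from the count tables. A gene entry was taken when its name, or a name joined to it by a comma, was Rpsa, Fau, or Rps followed by a number with an optional a, a1 or x. Pseudogenes, paralogs with an l at the end of the name and the Rps6k kinases were left out. This gave 32 of 23698 gene entries, of which 1 was a merged entry, named Rps27,Rps27rt in the tables and called Rps27 here.

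The cells, called SCCc in the study, are a previously generated line of keratinocytes with an HrasG12V allele and a knockout of the floxed Tgfbr2 gene, which encodes a receptor for TGFβ. The labels trace the line to back skin at P0, the day of birth, and put it at passages 10 to 15. The study asked how the 5′ untranslated region (5′UTR) of an mRNA bears on its translation in such tumor cells. The data used here came from SCCc, with 1 library of ribosome profiling and 2 of RNA-seq. Wild-type keratinocytes and the long-read libraries were not analysed here, so each value below describes a gene within SCCc and no difference from other cells. The RNA-seq replicates are not stated to be separate cultures, and the spread between them may be technical. The study also lists 2 ribosome profiling libraries of these tumor cells in another series, which were not analysed here. Footprint values therefore come from 1 library and carry a counting error only.

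The keratinocyte label was checked against marker genes. All 8 keratinocyte markers were measured above the filters given below, with a summed RNA-seq density of 15286 in replicate 1 and 17396 in replicate 2, led by Krt5, the keratin of basal keratinocytes. Of 7 fibroblast markers 1 passed, and the list summed to 13.3 and 19.9, with Col3a1 the most abundant. Of 5 immune markers 1 passed, with sums of 37.9 and 46.1 that came mostly from Cd68, while Cd207 and Cd3e were at 0 counts in both RNA-seq libraries. Of 5 melanocyte markers 1 passed, with sums of 5.46 and 5.52 and Pmel as the most abundant. In such bulk libraries, fewer cells of a type and less RNA in each of them cannot be told apart, and the part of these other cells in the values below was not tested. Hras had an RNA-seq density of 48.5 and 50.9, and Tgfbr2 of 61.4 and 59.0. Counts per gene show neither a base change nor the loss of an exon, so neither modification can be read from them.

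The small ribosomal subunit binds the mRNA, scans the 5′UTR together with initiation factors and holds the decoding centre, in which codons meet the anticodons of tRNAs. Its proteins sit on a core of ribosomal RNA that folds into a head, a body and a platform, and a complete subunit carries a single copy of each of them. Many of their mRNAs start with a run of pyrimidines, the 5′ terminal oligopyrimidine (TOP) motif, through which mTORC1 signalling adjusts their translation, and the genome holds many processed pseudogenes of them.

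In ribosome profiling, the pieces of mRNA covered by ribosomes survive nuclease digestion and are sequenced as footprints. The exon counts summed to 3549555 in the ribosome profiling library, of which 3198469 fell on coding sequences (CDS), and to 10707930 and 14003713 in RNA-seq replicates 1 and 2. Densities are given as RPKM, the counts divided by the kilobases of the counted region and scaled to the exon counts of the library. All 32 small-subunit genes had at least 414 footprints on the CDS and at least 103 and 142 RNA-seq counts in the replicates. They also passed the filters, an RNA-seq RPKM above 1 in both replicates, a mean normalised count above 25 and a footprint on a counted CDS, as did 9863 genes in all. Together they took 3.03% of the footprints on CDS, with a 95% Wilson interval of 3.01% to 3.05%. Their share of the RNA-seq exon counts was 1.63% (1.62% to 1.64%) in replicate 1 and 1.74% (1.74% to 1.75%) in replicate 2, so the share of footprints was above both. Over the CDS alone, the RNA-seq shares were 2.24% and 2.33%, closer to that of the footprints. All intervals cover counting error only, since PCR copies of a fragment are not independent molecules.

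Footprint density on the CDS was narrowly spread over the small subunit. It ran from 1073 RPKM in Rps2, a protein at the entry of the mRNA channel, to 4338 in Rps29, a zinc-binding protein of the head, a 4.04-fold range. The median was 2312, 20 of the 32 genes lay between 1500 and 3000, 9 lay above 3000, and 3, namely Rps2, Rps27 and Rps12, lay below 1500. The standard deviation (SD) of log2 density was 0.49, whereas the largest counting error of a single gene was 0.07 on this scale. In the ranking of the 9863 genes by footprint density, the small-subunit genes stood between the percentiles 98.2 and 99.8. Proteins that enter the subunit in equal copies thus had footprint densities within a narrow band near the top of these cells.

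RNA-seq density over exons was widely spread in the same genes. As the mean of both replicates it was 29.9 RPKM in Rps25, the lowest, and above 2000 in others, such as Rps20 with 2350. The SD of log2 density was 1.91 over the 32 genes, with 1.90 in replicate 1 and 1.93 in replicate 2, so both libraries gave the same width. Of the 32 genes 12 lay above 1000 RPKM, 14 between 100 and 1000, and 6 below 100, and their percentiles among all genes were 71.8 or higher. The replicates differed from each other far less than the genes did. The log2 ratio of replicate 2 to replicate 1 had a median of 0.09 and an SD of 0.14 over the small-subunit genes, beside −0.01 and 0.20 over all genes. It was largest in Rps10, at 0.42, and Rps2, at 0.37. A chi-square comparison of the replicates gave 19.7 per degree of freedom over these genes and 7.52 over all, which is more than sampling noise, and they were kept as separate libraries.

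**Figure D1:**
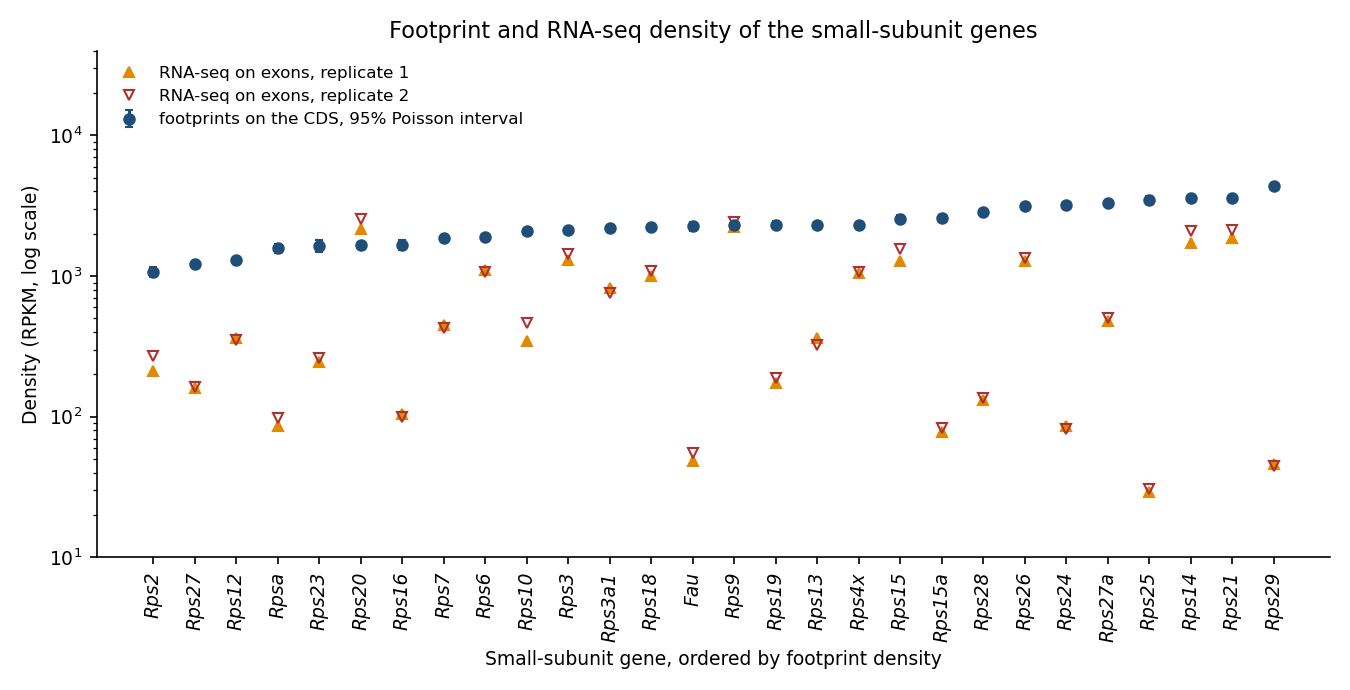
Density in RPKM, on a log axis, of footprints on the CDS (circles, bars are 95% Poisson intervals) and of RNA-seq on exons in replicates 1 and 2 (triangles) for 28 small-subunit genes, ordered by footprint density. Footprints stayed within 1073 to 4338 RPKM, and the RNA-seq means of the genes shown ran from 29.9 in Rps25 to 2350 in Rps20.

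The 2 measures hardly moved together from gene to gene. Across the 32 genes, log2 RNA-seq density over exons and log2 footprint density had a Pearson r of 0.07 and a Spearman rho of 0.11, and with RNA-seq counted over the CDS r was 0.08. These are descriptions over genes measured in the same libraries, which are not independent replicates. In the 29 small-subunit genes of the mitochondrial ribosome, which served as a comparison, r was 0.42 over exons and 0.69 over the CDS, and in the 47 genes of the large cytosolic subunit it was 0.14 over exons. The differences between these coefficients were not tested.

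As footprints varied little, the ratio of footprints to RNA followed mainly the RNA-seq side. Translational efficiency was computed as the log2 ratio of CDS footprint density to exon RNA-seq density, averaged over the replicates, and the median of the 9863 genes was set to 0. Its median over the small-subunit genes was 1.64, with 1.65 from RNA-seq replicate 1 alone and 1.58 from replicate 2 alone. Of the 32 genes, 29 lay above the median of all genes and 20 lay above 1, the threshold used for a call, where 20.8% of all genes did, and 0 lay below −1, where 21.1% did. Where all 3 libraries had to reach 100 counts, the median of the genes kept was 0.39 higher. All 32 values were lower by that amount, which put Rps20 at −1.25 and thus below −1. The values spread over the subunit with an SD of 1.94, beside 1.45 over all genes, so a median describes this list poorly. With RNA-seq counted over the CDS, the median was 1.36 and again 20 genes lay above 1, beside 18.3% of all genes.

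Among the 14 proteins of the head, the highest translational efficiencies came with low RNA-seq densities. Rps25, which lies near the tRNA exit site and is needed by several viral internal ribosome entry sites, had 3475 RPKM of footprints and 29.1 and 30.7 RPKM of RNA-seq, for a log2 translational efficiency of 6.52 ± 0.07 (SD over RNA-seq replicates, n = 2, here and below). In Rps29 the densities were 4338 and, for RNA-seq, 46.0 and 44.5, which gave 6.24 ± 0.02. These were the highest 2 values of the subunit and stood apart by more than the replicate spread, but with RNA-seq over the CDS their order was the reverse. The SD over replicates leaves out the counting error of the ratio. That error was 0.10 in Rps25, the largest of the subunit, and 0.07 in Rps29, and it was above the SD in both. Rps28, at the mRNA exit, followed with 2877 of footprints, 131 and 136 of RNA-seq and 4.09 ± 0.05. Rps16, whose tail reaches the tRNA in the peptidyl site, had 1664 of footprints, 104 and 100.3 of RNA-seq and 3.68 ± 0.03. Thus 4 head proteins combined ordinary or high footprint density with RNA-seq densities of at most 136 RPKM.

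The next head proteins held intermediate values. Rps19, mutated in many patients with Diamond-Blackfan anemia, had 2319.9 RPKM of footprints, 173 and 189 of RNA-seq, and a log2 translational efficiency of 3.34 ± 0.11. In Rps27a, which is made as a fusion with ubiquitin and sits in the beak of the head, footprints reached 3296 and RNA-seq 479.7 and 505, for 2.401 ± 0.064. Rps10, a surface protein that is ubiquitylated when ribosomes collide, had 2092 of footprints and the least even replicates, 346 and 462, which gave 2.03 ± 0.31. The gap between Rps10 and Rps27a was about as large as that spread. Rps12, another protein of the beak, had 1312 of footprints, 362 and 353 of RNA-seq and 1.53 ± 0.01.

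The remaining head proteins were those with abundant RNA-seq reads. Rps18 and Rps15, which face the large subunit near the peptidyl site, had 2222 and 2566 RPKM of footprints. RNA-seq gave 1008 and 1093 for Rps18, and 1270.5 and 1568 for Rps15. Their log2 translational efficiencies, 0.74 ± 0.09 and 0.51 ± 0.23, overlapped within the replicate spread. Rps3, which lines the entry of the mRNA channel, had 2134 of footprints, 1299.9 and 1433 of RNA-seq and 0.30 ± 0.11. Rps20, ubiquitylated like Rps10 in collided ribosomes, had the lowest value over exons, −0.85 ± 0.17, from 1650.2 of footprints and 2169 and 2531 of RNA-seq. With RNA-seq over the CDS it was at 0.18, and Rps3 was the lowest at −0.72. Over exons, Rps20 and Rps9, a protein of the body, lay below the median of all genes. Over the CDS, Rps9, Rps3 and Rps6 lay below it and Rps20 did not.

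In the body and platform, 18 proteins covered a similar range. Fau encodes a ubiquitin-like protein fused to the ribosomal protein eS30, and had 2258 RPKM of footprints, 48.3 and 55.0 of RNA-seq and a log2 translational efficiency of 5.11 ± 0.14. Rps24, mutated in other patients with Diamond-Blackfan anemia, had 3191 of footprints, 85.6 and 82.2 of RNA-seq and 4.91 ± 0.03. Rps15a, a protein of the core of the body, had 2589 of footprints, 77.8 and 82.9 of RNA-seq and 4.67 ± 0.08. These 3 genes and Rpsa made up the body and platform genes under 100 RPKM of RNA-seq over exons. In Rpsa, a platform protein first described as a laminin receptor, footprints were 1582 and RNA-seq was 86.2 and 97.6, for 3.76 ± 0.14. Fau and Rps24 differed by little more than their replicate spread. With RNA-seq over the CDS the efficiencies were much lower, 3.63 for Fau, 3.38 for Rps24, 1.31 for Rps15a and 1.34 for Rpsa.

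Values from 2.57 down to 1.76, above the subunit median of 1.64, were found in the next group. The merged entry of Rps27, a zinc-binding protein of the platform, had 1209.7 RPKM of footprints, 159.6 and 162 of RNA-seq and a log2 translational efficiency of 2.57 ± 0.03. Rps13 had 2322 of footprints, 364 and 321 of RNA-seq and 2.42 ± 0.12. In Rps23, which carries a loop into the decoding centre, footprints were 1643 and RNA-seq 245 and 259.8, for 2.36 ± 0.07. Those 3 efficiencies lay close together, and the values of Rps13 and Rps23 overlapped within the replicate spread. Rps2 had the lowest footprint density, 1073 with an interval of 992 to 1158, and 210.4 and 271 of RNA-seq, for 1.81 ± 0.27. Rps7 reached 1.76 ± 0.04 from 1876 of footprints and 450.4 and 426 of RNA-seq, so it did not differ from Rps2 beyond that spread.

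The other proteins of the body and platform had RNA-seq densities of at least 758 RPKM. Rps3a1, on the platform, had 2193 of footprints, 827 and 758 of RNA-seq and a log2 translational efficiency of 1.13 ± 0.08. Rps26, which contacts the mRNA upstream of the start codon, followed with 3152 of footprints, 1288 and 1346 of RNA-seq and 0.92 ± 0.06. Rps4x, encoded on the X chromosome, had 2322 of footprints and 1059 and 1066 of RNA-seq, for 0.78 ± 0.02. Rps14, at the mRNA exit, had 3563 of footprints, 1732 and 2106 of RNA-seq and 0.55 ± 0.21. Rps21, beside Rpsa, was alike in all of these, with 3601, 1878 and 2112, and 0.51 ± 0.13. Rps6, the protein phosphorylated by S6 kinases downstream of mTORC1, had 1893 of footprints, 1096 and 1069 of RNA-seq and 0.46 ± 0.01. Rps9, near the mRNA entry, was the lowest of the group with 2299 of footprints, 2246 and 2438 of RNA-seq and −0.37 ± 0.10.

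By place in the subunit, both groups held high and low values. The median log2 translational efficiency was 1.78 for the head, with 9 of 14 genes above 1, and 1.44 for the body and platform, with 11 of 18. Its SD was 2.30 in the head and 1.66 in the body and platform. With RNA-seq counted over the CDS, the medians were 1.78 and 1.24. The median footprint densities were 2437 and 2302 RPKM, and those of RNA-seq 448 and 615. By descent, the 15 proteins that bacteria also have showed a median efficiency of 0.77 with 7 genes above 1, and the 17 found only in archaea and eukaryotes or in eukaryotes 1.76 with 13 above 1. Their median footprint densities were 2299 and 2319.9 RPKM, whereas their median RNA-seq densities were 1050.5 and 438. These groups were not tested against each other, since each is a short list measured in the same libraries.

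**Figure D2:**
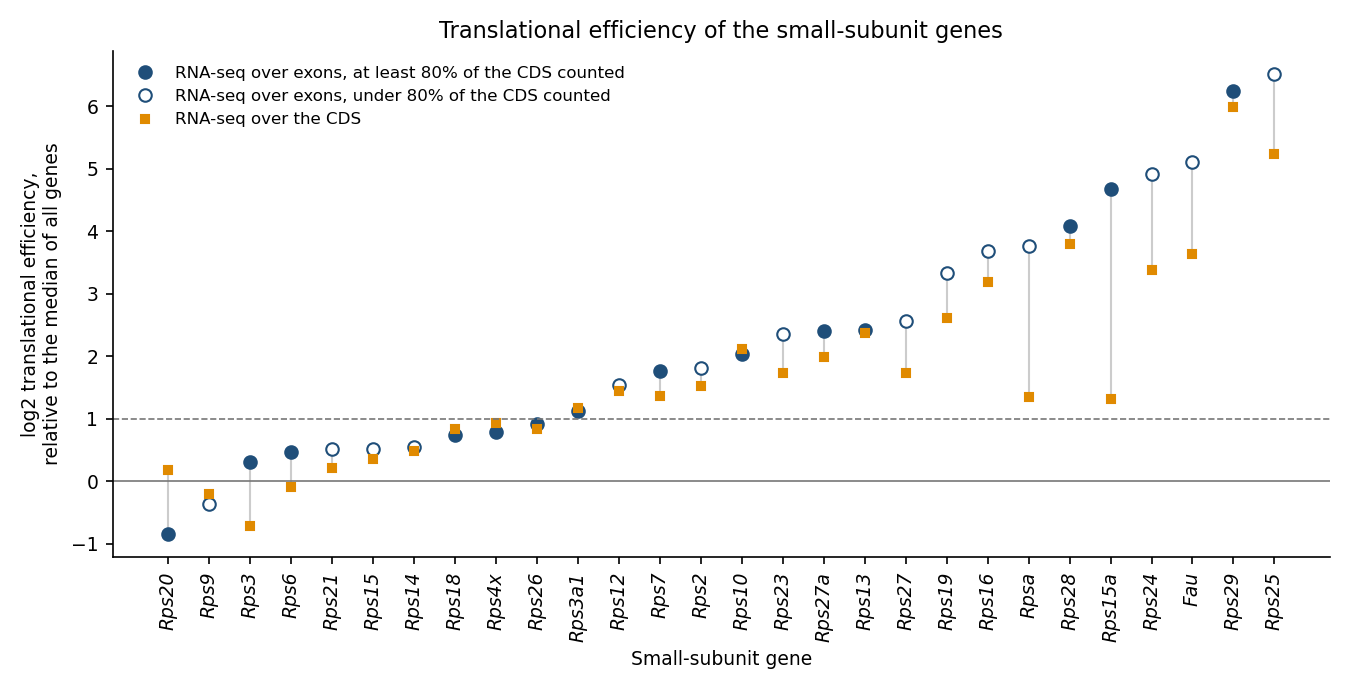
Log2 translational efficiency of 28 small-subunit genes with the median of all genes at 0 (solid line; dashed line at 1), with RNA-seq counted over exons (circles, filled where the counted portion of the annotated CDS was 80% or more) or over the CDS (squares). Values over exons ran from −0.85 in Rps20 to 6.52 in Rps25, and Rps15a and Rpsa were lower by the greatest amounts when RNA-seq was counted over the CDS.

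Many neighbours in the order of footprint density could not be separated. Rps14 and Rps21 had 95% Poisson intervals of 3435 to 3695 and 3432 to 3775 RPKM, which overlapped. Likewise Rps9, Rps13, Rps19 and Rps4x all lay between 2299 and 2322. Rps29 stood above these, with an interval of 4172 to 4508. At the other end, Rps2 and Rps27, with 992 to 1158 and 1139 to 1284, overlapped as well, and so the lowest place was not settled by the counts.

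The length over which footprints were counted differed greatly between the small-subunit genes. Positions shared between overlapping gene models can be left out of such counting, and the counted CDS was therefore set against the annotated CDS of GENCODE M21, all positions that are coding in any transcript of the gene. The counted CDS ran from 71 nt in Rps23 to 792 nt in Rps3a1, with a median of 351 nt. The counted share of the annotated CDS had a median of 92.5%, and 18 of the 32 genes had at least 80%. It was under 25% in 8 genes. Against the CDS of the principal transcript alone, 20 genes had at least 80% and 7 were under 25%. The lowest by the annotated CDS were Rpsa with 126 of 958 nt (13.2%), Rps23 with 71 of 429 nt (16.6%), Rps19 with 152 of 845 nt (17.99%, or 34.9% of the 435 nt of its principal CDS) and Rps2 with 171 of 906 nt (18.9%). Next came Fau with 79 of 399 nt (19.8%), Rps25 with 76 of 375 nt (20.3%), Rps24 with 93 of 402 nt (23.1%) and Rps16 with 107 of 438 nt (24.4%). The genes with little counted CDS thus included Rps25, Fau and Rps24, 3 of the 4 highest by translational efficiency, but also Rps2. The other gene among those 4, Rps29, was counted over its whole CDS of 168 nt.

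Restricting the list to well-counted genes narrowed the RNA-seq densities, and the footprint densities only by 1 of 2 definitions. In the 18 genes with at least 80% of the CDS counted, the SD of log2 density was 0.37 for footprints and 1.63 for RNA-seq, and footprints ranged 2.63-fold. Rps12 and Rps27, 2 of the 3 genes with the lowest footprint densities, are left out there although their principal CDS was counted in full. In the 20 genes with at least 80% of the principal CDS counted, the SDs were 0.47 and 1.61 and footprints ranged 3.59-fold. In the 18 genes the median translational efficiency was 1.10, with 10 above 1. Relative to the median of all genes with such a counted share, it was 1.16. On that scale 10 of the 18 genes and 19.7% of all genes with such a share lay above 1. Relative to the median of all genes, the 14 other genes had a median of 2.46 with 10 above 1. On this scale 41% of all genes counted under 80% lay above 1. Over the 32 genes, the counted share and translational efficiency had a Pearson r of −0.37, and the counted share and log2 RNA-seq density 0.45. The part of the counted length in these values was not tested.

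The region over which RNA-seq was counted also moved single genes. Rps15a had a counted 3′UTR of 4727 nt in 5134 nt of exon, and its RNA-seq density was 980.5 and 1044 RPKM over the CDS, against 77.8 and 82.9 over exons. With the CDS its efficiency was 1.31 in place of 4.67. In Rpsa, where the 3′UTR made up 799 of 993 nt, RNA-seq over the CDS was 552 and 654, and the efficiency was 1.34 in place of 3.76. Both genes thus remained above 1, at a much lower value. Rps3 had 1061 nt of 3′UTR and 3230 and 3562 RPKM of RNA-seq over the CDS, and its value went from 0.30 to −0.72. In Rps6, with a 3′UTR of 606 nt, it went from 0.46 to −0.10. Rps20 went the other way, from −0.85 to 0.18, so Rps3 held the lowest place over the CDS. Fau went from 5.11 to 3.63 and Rps24 from 4.91 to 3.38, below Rps28 with 3.79. Rps25 and Rps29 kept the highest places over the CDS as well, with 5.23 and 5.99 in the reverse order.

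Set beside other ribosomal proteins, the small subunit had the smallest SD of footprint density. The SD of log2 footprint density was 0.77 in the 47 large-subunit genes, 0.80 in the 29 mitochondrial small-subunit genes and 2.39 over all genes, beside 0.49 in the small subunit. Median footprint densities of the small and large cytosolic subunits were close, 2312 and 2451 RPKM, and the mitochondrial list had 102. The range in the large subunit reached from 673 in Rpl22 to 23190 in Rpl41, which encodes a very short protein. The interquartile range was 1889 to 3162 RPKM in the small subunit and 1884 to 3331 in the large subunit. Among genes whose annotated CDS was counted to 80% or more, the SDs were 0.37 and 0.43. With at least 80% of the principal CDS counted they were 0.47 and 0.85, where Rpl41 enters, so the difference in SD depends on which genes are kept. RNA-seq density had an SD of 1.99 in the large subunit, 0.79 in the mitochondrial list and 1.76 over all genes, beside 1.91 here. In both cytosolic subunits RNA-seq densities therefore spread more than footprints, and in the mitochondrial list by almost the same amount.

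Taken over all their genes, the translational efficiency of the small subunit lay below that of the large subunit. The medians were 1.64 and 2.96, a difference of −1.31, and 37 of the 47 large-subunit genes lay above 1. The mitochondrial list had a median of 0.81 with 11 of 29 above 1. In the large subunit fewer genes were fully counted, with 16 of 47 at 80% or more and 19 under 25%. Among genes with at least 80% counted, and relative to the median of such genes, the medians were 1.16 and 1.28 and the difference was −0.12, so it was almost gone. With the principal CDS as the measure the medians were 1.35 and 1.62, and the difference was −0.27. With RNA-seq counted over the CDS, and relative to all genes, the order turned in such well-counted genes. The medians were then 1.155 in the small and 0.919 in the large subunit, and 1.242 and 0.919 by the principal CDS. This comparison rests on 1 ribosome profiling library and was not tested.

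**Figure D3:**
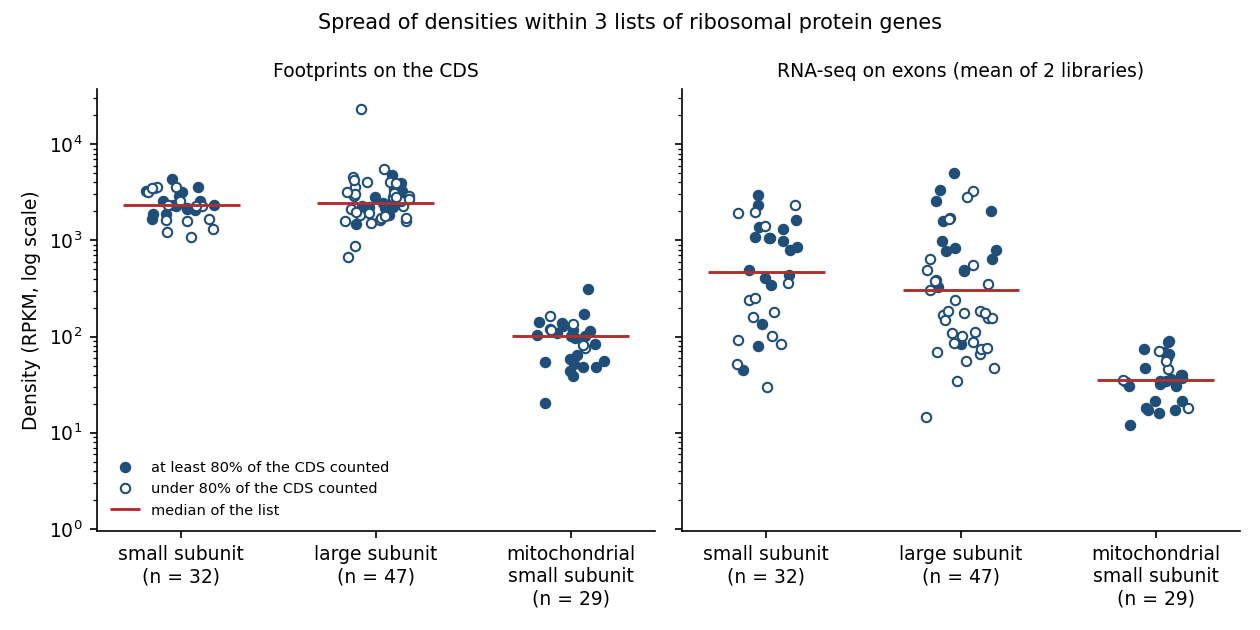
Density in RPKM, on log axes, of footprints on the CDS (left) and RNA-seq on exons (right) in the small subunit, the large subunit and the mitochondrial small subunit; each point is a gene, filled where at least 80% of the CDS was counted, and lines are medians. The SD of log2 footprint density was 0.49, 0.77 and 0.80, and 0.37 and 0.43 in the cytosolic subunits for the filled points.

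Genes of the small subunit have many near-identical copies in the genome, and reads from shared stretches could have been placed on either, so the values of such genes are uncertain. To describe this, each principal CDS was split into all its stretches of 28 nt, about a footprint, and of 101 nt. For each stretch it was asked whether it also occurs in an annotated transcript of another gene. The whole principal CDS was used, also where few of its positions were counted, as in Rps25 with 76 of 375 nt. The shared portion within the counted positions was not measured. The median shared portion was 95.8% for 28 nt and 69.4% for 101 nt, and 30 of the 32 genes shared over 50% of the shorter stretches. In the large subunit the medians were 99.5% and 77.7%, and in the mitochondrial list both were 0. Rps2 shared 28-nt stretches with 105 other genes, of which 104 were pseudogenes, whereas the whole CDS of Fau occurred in 1 pseudogene, Gm9843.

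RNA-seq density went down with the shared portion, and footprint density did so less. For 9 genes all 101-nt stretches were shared, namely Fau, Rps6, Rps12, Rps13, Rps16, Rps23, Rps27a, Rps28 and Rps29, and their median RNA-seq density was 253 RPKM, from 45.3 to 1083. Genes that shared some of these stretches numbered 20, with a median of 826. Rps3 and Rps21 shared none, and their RNA-seq densities were 1366 and 1995. Median footprint densities of the groups that shared all and some stretches were 2258 and 2312 RPKM, and median log2 translational efficiencies 2.42 and 1.31. Across the 32 genes the shared portion had a Pearson r of −0.56 with log2 RNA-seq density (Spearman rho −0.54), −0.29 with log2 footprint density and 0.47 with translational efficiency. Low RNA-seq values in heavily shared genes are therefore uncertain as mRNA levels, and the part of shared sequence in them was not tested.

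**Figure D4:**
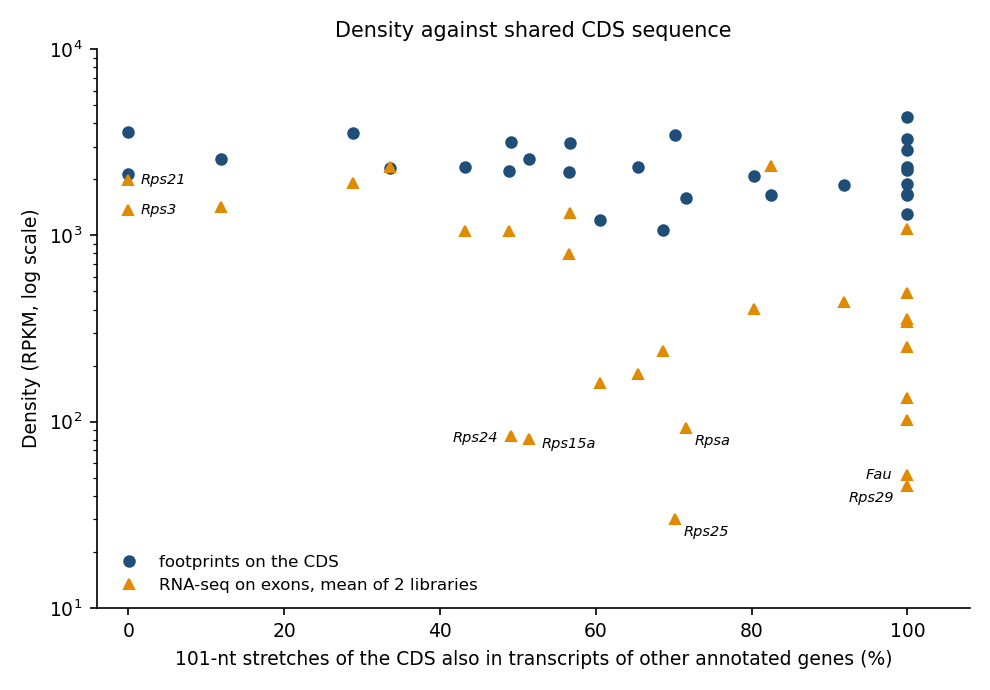
Footprint density (circles) and mean RNA-seq density (triangles) in RPKM, on a log axis, against the percentage of 101-nt stretches of the CDS that also occur in transcripts of other annotated genes, for 28 small-subunit genes. Over all 32, RNA-seq density had an r of −0.56 with this percentage, and footprint density −0.29.

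Footprints were sparse in the 5′UTRs of the small subunit. The ratio of 5′UTR to CDS density was taken for the 31 genes with at least 10 counted nt of 5′UTR, leaving out Rps4x with 0 nt. Its log2 median was −2.47, and in 0 of the 31 genes was the 5′UTR denser than the CDS. Among the 8566 of all genes with such a ratio, 19.9% had a denser 5′UTR and the median was −1.21. Genes with 0 footprints on the 5′UTR have no ratio and are left out there, which raises both values. The median was −2.80 in the large subunit and −2.26 in the mitochondrial list. The 5′UTRs held 3.53% of the exon footprints of the small subunit, beside 4.92% over all genes. Their share of the RNA-seq counts was 6.59% and 7.29% in the replicates, beside 3.50% and 4.06% over all genes. This came from Rps20, since without it the share was 2.98% and 3.35%, below that of all genes, and the share of footprints was 3.19%. The ratio of densities in RNA-seq had a median of −3.25 here and −1.72 over the 8938 of all genes with a value. By that ratio 1 of the 31 genes had a denser 5′UTR, where 8.6% of those 8938 genes had.

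The ratio of 5′UTR to CDS footprint density was highest in Rps25. It had 107 footprints on 10 nt, for a log2 ratio of −0.21. Rps26 had 220.2 footprints on 28 nt and a ratio of −0.51, with RNA-seq counts of only 1.28 and 2.53 on that stretch. In Rps12, 281 footprints on 91 nt gave −0.59, beside RNA-seq counts of 14.3 and 6.84. Rps20 followed at −0.64 with 429.8 footprints on 114 nt, and was unusual in its RNA-seq reads. Its 5′UTR held 6642 and 10228 RNA-seq counts, 57.0% and 57.5% of its exon counts in the replicates, for a log2 ratio of 2.07 to the CDS. This was the gene with the denser 5′UTR in RNA-seq. Rps18 came next, at −1.04 with 80.3 footprints on 21 nt, and these 5 ratios were above the median of all genes with a ratio. At the low end, Rps19 had 15.8 footprints on 156 nt and a ratio of −6.34, and Rps27a had −4.69.

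**Figure D5:**
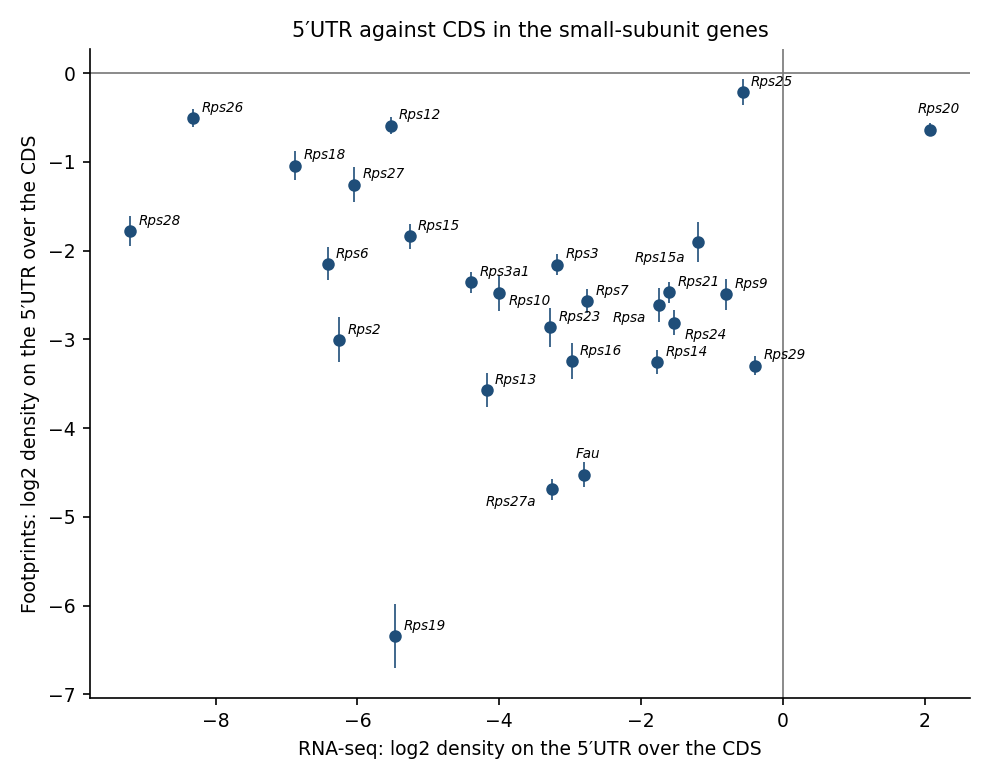
Log2 ratio of 5′UTR to CDS density in footprints (vertical axis, bars are counting errors) and in RNA-seq (horizontal axis, mean of both replicates) for 27 small-subunit genes with at least 10 counted nt of 5′UTR. All 27 lay below 0 in footprints, and Rps20 alone lay above 0 in RNA-seq, at 2.07.

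Most counted 3′UTRs were short, with exceptions such as Rps15a with 4727 nt and Rps3 with 1061 nt, and together they held a small share of the reads. Their median counted length was 45.5 nt, beside 927 nt over all genes. They held 1.23% of the exon footprints of the small subunit and 0.90% and 0.80% of its RNA-seq counts in the replicates, whereas over all genes the 3′UTRs held 1.80% of footprints and 27.5% and 25.5% of RNA-seq counts. The ratio of 3′UTR to CDS footprint density had a log2 median of −4.11 in the 25 genes with a value, above the −5.33 over all genes.

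Annotated 5′ ends were looked up for pyrimidine runs because of the TOP motif of these mRNAs. RefSeq promoter sequences of build GRCm38.p6 matched 24 of the 32 genes, with 28 start sites. Rps14, Rps20, Rps27a and Rps29 were among those with no match. A run was a C followed by at least 4 pyrimidines on the transcribed strand, and windows reached from 10 nt before the start to 20 nt from it on. A C at the annotated start followed by at least 4 pyrimidines is called a run at the start. It was found in 7 of 28 windows (25%), in 17.5% of large-subunit windows and in 2.51% of all promoters. In each of the 7 windows the base before the start was also a pyrimidine, so the stretch of pyrimidines itself began earlier. Beginning within 10 nt of the start on either side, a run was found in 15 of 28 windows (53.6%), 55% in the large subunit and 30.7% over all promoters. A match describes these letters only. The windows of 4 genes with a run at the start and of 2 with none, chosen to include high and low translational efficiencies, are shown 5′ to 3′. Capitals mark the run from the annotated start on. They lie at chr19:6057937-6057966 on the plus strand for Fau, chr7:118116128-118116157 on the minus strand for Rps15a, chr17:33955646-33955675 on the minus strand for Rps18, chr4:86857348-86857377 on the minus strand for Rps6, chr9:44407704-44407733 on the plus strand for Rps25 and chr7:99483690-99483719 on the minus strand for Rps3, each over the start of the annotated 5′UTR.
Fau: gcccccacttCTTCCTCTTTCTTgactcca
Rps15a: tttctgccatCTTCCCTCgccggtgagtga
Rps18: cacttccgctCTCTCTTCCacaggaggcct
Rps6: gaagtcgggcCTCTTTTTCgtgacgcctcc
Rps25: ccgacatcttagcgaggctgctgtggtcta
Rps3: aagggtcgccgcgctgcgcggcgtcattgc

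A run at the annotated start came with both high and low translational efficiency. Among the genes shown, Fau and Rps15a had 5.11 and 4.67, and Rps18 and Rps6 had 0.74 and 0.46. With RNA-seq over the CDS these 4 values were 3.63, 1.31, 0.83 and −0.10, so Rps15a was then much lower. The windows without a run belonged to Rps25, at 6.52, and Rps3, at 0.30. The other genes with a run at the start were Rps10, Rps21 and Rps27, at 2.03, 0.51 and 2.57. Annotated starts need not be the starts used in SCCc, which were not measured in the libraries used here.

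The genes lay on 14 chromosomes, and 11 of the 32 held an annotated small RNA gene within their bounds. Small nucleolar RNAs commonly sit in introns of ribosomal protein genes, outside the counted exons. Only 1 of these small RNA genes overlapped an annotated UTR on the same strand, with 87 nt of Snord14a in a transcript of Rps13 marked for nonsense-mediated decay.

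Other genes that work with the small subunit had list medians below the 1.64 of its proteins. Rack1, a scaffold protein bound to the head of the subunit and named Gnb2l1 in the tables, had 1905 RPKM of footprints and 3532 and 3940 of RNA-seq, for a log2 translational efficiency of −1.31. Its footprint density was thus within the range of the ribosomal proteins, and its RNA-seq density was above all of them. Of the subunits of eIF3, the initiation factor that binds the small subunit, 12 were measured, with a median of 0.03, 0 above 1 and 1 below −1. They ran from −1.08 in Eif3f to 0.99 in Eif3m. The 14 factors that mature the small subunit, such as the nuclease Nob1, had a median of 0.70, with 5 above 1 and 0 below −1, from −0.06 in the kinase Riok3 to 4.12 in the methyltransferase Dimt1. The 6 genes of the mTORC1 pathway had a median of −0.57, with 0 above 1 and 2 below −1. They ran from −1.39 in Rps6kb2 to 0.91 in Rps6kb1, which both encode kinases of Rps6. Of all genes, 20.8% lay above 1 and 21.1% below −1, and these short lists were not tested against them.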

How the data were processed

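The authors trimmed the reads with Trim Galore, aligned them to GRCm38 with STAR 2.6.1, used Bowtie2 2.4.1 to take ribosomal, mitochondrial and tRNA reads out of the ribosome profiling data, and counted reads per gene and region with Plastid. The deposited values are estimated counts that need not be whole, with the counted length of each region and an RPKM value from the authors beside each count. The deposited RPKM values rest on library totals above the sum of the exon counts, so RPKM was computed again from counts, counted lengths and the exon sum of each library. The annotation release behind the counts is not given in the sources used here.

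Computations used Python 3.11.15 with numpy 2.4.6, pandas 2.3.3 and scipy 1.17.1. Size factors for the mean normalised count came from the counts rounded to whole numbers, and R 4.3.3 with DESeq2 1.42.0 and edgeR 4.0.16 gave the alternative scalings. No test between conditions was run, since 1 condition was used. Calls were log2 translational efficiencies above 1 or below −1. The calculation was tested on simulated counts. Of the exon counts above 0 in the RNA-seq replicates, 73.0% and 71.1% were multiples of 1/101 to within 1e-06, and 101 nt was taken as the longer stretch for shared sequence. Gene structures came from GENCODE M21 and promoter windows from RefSeq.

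The members and lists were chosen with earlier results of these data known. Values in each library were given for the 4 highest and 4 lowest genes by translational efficiency, the 3 highest and 3 lowest by footprint density, those with at least 80% of the CDS counted, Fau, Rps27a, the 3 highest by 5′UTR ratio, the 2 with the largest replicate difference and the merged entry, and other small-subunit genes were named as well. The single values of 4 members are not reported here, and these members are in the list summaries but not in the figures that name genes. The alternatives tried were to leave out either RNA-seq replicate, RNA-seq over the CDS, a pseudocount of 1 RPKM, no division by length, other filters on counts and counted lengths, among them 1 on the principal CDS added later, and both scalings.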

Additional observations from a re-analysis of the deposited data

How the results depend on the processing

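The direction of the list values given below was kept under each single alternative. It was not kept for the difference from the large subunit when 80% or more of the CDS counted was joined with RNA-seq over the CDS. The medians were then 1.155 in the small and 0.919 in the large subunit. Leaving out either RNA-seq replicate gave a median log2 translational efficiency of the small-subunit genes of 1.58 to 1.65, a difference from the large subunit of −1.41 to −1.37, 20 genes above 1 and an SD of log2 RNA-seq density of 1.90 to 1.93. Counting RNA-seq over the CDS gave a median of 1.36, a difference of −1.15 and an SD of 1.51. Without division by length the median was 2.00 and the difference −0.70. A minimum of 100 counts per library gave a median of 1.25, over 4829 genes. With at least 100 counted nt of CDS the median was 1.32, the difference −0.77 and the SD of RNA-seq 1.71. Where 80% or more of the annotated CDS was counted, the median was 1.16, the difference −0.12, the count above 1 fell to 10 of 18 genes, and the SDs were 0.37 for footprints and 1.63 for RNA-seq. With 80% or more of the principal CDS counted, an alternative chosen after seeing the data, the median was 1.35, the difference −0.27, the count 12 of 20 genes, and the SDs were 0.47 and 1.61. Of all genes, 19.7% lay above 1 in the setting with the annotated CDS and 20% in that with the principal CDS. Adding the densities of other gene entries that share 101-nt stretches, also chosen after seeing the data, gave a median of 1.27, a difference of −1.67 and an SD of RNA-seq of 1.88. The smaller counts with at least 80% of either CDS come from fewer genes entering, and for the other values the cause was not tested.

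In the settings that kept all of them 18 to 26 of the 32 small-subunit genes lay above 1, and 16 of 28 with at least 100 counted nt of CDS. Among these settings, a share of all genes is given only for the main one (20.8%) and for RNA-seq over the CDS (18.3%). The other counts therefore describe the small-subunit genes alone. With at least 100 counts per library Rps20 was at −1.25, so 1 gene lay below −1 in place of 0. This came from the median of the genes kept, which was 0.39 higher and lowered all 32 values alike. No share of all genes below −1 is given for that setting. Scaling by DESeq2 size factors or edgeR TMM factors moved the median of all genes by 0.63 and 0.56. Values relative to that median barely change under such a scaling by construction, so the 20 genes above 1 there are no separate support. A filter on the deposited RPKM, also chosen after seeing the data, kept 8204 genes and 20 above 1. The 5′UTR ratio had a median of −2.53 with at least 30 nt of 5′UTR and −2.38 with at least 100 counted nt of CDS. No paired analysis was possible because the files hold 1 condition and ribosome profiling carries no replicate number to match.

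The footprint values rest on 1 library, and genes with few counted nt, such as Rps23 with 71 nt, rest on 414 footprints. Counted regions, shared sequence and the alignment of reads to copies were taken as deposited, and starts and lengths of transcripts in SCCc were not measured in the libraries used here.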

Other observations

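Some gene entries that share long stretches with small-subunit genes had many reads of their own. They were noticed after the values were seen and are given as counts on exons. Gm5148, annotated as protein coding, holds 90.6% of the 101-nt stretches of Rps23. It had 0 footprints, beside 16752 and 21902 RNA-seq counts in replicates 1 and 2, where Rps23 itself had 464 footprints on exons and 389 and 538 RNA-seq counts. In RPKM the RNA-seq density of Gm5148 was 1288 and 1287. Footprints and RNA-seq reads were thus split differently between this pair. For counting error only, 0 footprints leave room for at most about 3 expected counts.

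Copies with reads of both kinds were seen for other genes. The pseudogenes Rps15a-ps4 and Rps15a-ps6 had 1468 and 1727 footprints, beside 3665 for Rps15a. Their RNA-seq counts were 7258 and 9239 for Rps15a-ps4 and 3414 and 4291 for Rps15a-ps6, beside 4278 and 5959 for Rps15a. Gm6654, a processed pseudogene that shares 25.3% of the 101-nt stretches of Rps26, had 1724 footprints and 3965 and 5054 RNA-seq counts, where Rps26 had 4115 and 6181 and 8446. In Gm10653, which shares 3.21% of those of Rps2, the counts were above those of Rps2, with 970 footprints beside 686 and 1713 and 2597 RNA-seq counts beside 584 and 985. Rps19-ps3 had 551 footprints, fewer than the 1267 of Rps19, and 1426 and 2159 RNA-seq counts, more than its 586 and 841. Whether these reads came from the copies or from the genes cannot be told apart from counts per gene.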
